A study of Mus musculus with 36 samples.

Results

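Mesenchymal stem cells (MSCs) grown from the bone marrow of the vertebrae (vBM-MSCs) were compared with MSCs from femoral bone marrow (fBM-MSCs), adipose tissue (A-MSCs) and lung (pulmonary MSCs, P-MSCs). All vBM-MSC RNA-seq libraries with a deposited table were taken, which were 2 of the 11 libraries. The other tissues had 3 libraries each, and the third vBM-MSC library was not analysed here. The cells came from C57BL6/J mice aged 8 weeks. Femora and vertebrae were crushed, lung and fat were digested with collagenase, and every culture was grown in MesenCult medium for at most 3 passages. RNA was sequenced after Smart-seq2 and open chromatin was mapped by ATAC-seq. The study took all 4 tissues from the same 3 mice, and the labels do not say which libraries share a mouse. Cultured MSCs are mixed outgrowths of plastic-adherent cells, so in these bulk libraries fewer cells of a type and less RNA per cell cannot be told apart.

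The vertebral column arises from the somites, blocks of mesoderm beside the neural tube, whereas the femur arises from limb bud mesenchyme. Sclerotome, the part of the somite that builds the vertebrae, is marked by the transcription factors Pax1 and Pax9, and genes of the Zic and Hox families carry positional information along the body axis. Stromal cells of adult organs are known to retain parts of such positional programmes in culture. Bone marrow stroma also holds precursors of bone, cartilage and fat cells.

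Each library held 19569650 to 40517739 expected counts, and 12509 of 24411 genes had a CPM (a count scaled to library size) of at least 1 in at least 2 libraries, and were tested. Levels are given in TPM, which are scaled for library size and transcript length. MSC surface genes summed to 2445 and 2409 TPM over 8 genes in the vBM-MSC libraries, against 1059 to 1919 TPM in the others. Most of the sum was Itgb1, Cd44 and Ly6a. In vBM-MSC replicates 1 and 2, Vcam1 was at 71.77 and 53.48 TPM and Eng at 54.98 and 116.02 TPM. Thy1 was at 51.52 and 10.5 TPM, Pdgfra at 1.81 and 4.48 TPM and Nt5e at 0.32 and 11.01 TPM. Of the 12 macrophage markers, Adgre1, Itgam and Mrc1 were at 0 in both vBM-MSC libraries, and the list summed to 24.4 and 46.4 TPM against 16.2 to 52.4 TPM elsewhere. Of the 10 erythroid markers 7 were at 0 in both, as were 3 of 10 endothelial, 5 of 8 epithelial, 4 of 8 mesothelial, 7 of 12 glia and neuron and 7 of 12 skeletal muscle markers. The skeletal muscle list summed to 497 TPM in vBM-MSC replicate 1 and 56.5 TPM in replicate 2, nearly all of it Acta1 at 495 and 54.5 TPM, while Myod1 was at 0 in all 11 libraries. That list summed to 9.52 to 21.4 TPM in fBM-MSCs, 1035 to 1273 TPM in A-MSCs and 717 to 786 TPM in P-MSCs. The part of these differences in the results below was not tested.

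The 2 vBM-MSC libraries also differed from each other in bone genes. The 26 osteoblast genes summed to 3177 TPM in replicate 1 and 11896 TPM in replicate 2. Over all tested genes, 1628 differed more than 2-fold between these libraries on TMM-scaled CPM. Levels in the 2 vBM-MSC libraries are therefore given singly.

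In vBM-MSCs, 1582 genes were higher (12.6% of those tested) and 1187 were lower (9.49%) than the mean of the other 3 tissues, at an adjusted p under 0.05 in edgeR. The median log2 fold change over all tested genes was 0.03. On TPM, 920 genes (7.35%) were above every other library in both vBM-MSC libraries, and 365 genes (2.92%) were below every other library. Of these, 709 were also called higher and 285 also called lower, and these genes are described here. Of the 920 genes, 37 passed the filter on low counts through the vBM-MSC libraries alone, and none of the 365 did. Such genes had to differ to be tested, and Gucy2c, Zic4, Dio3, Pax9, Gdf10, Bst1 and Kng1 are among them, so their levels are given as a description with no p. On TMM-scaled CPM in place of TPM the split was 784 above and 552 below. At the edge of the rule, Trim47 lay just inside, with a lowest vBM-MSC level of 114.77 TPM against a highest other level of 114.69 TPM, and Rps6kc1 lay just outside at 11.34 against 11.35 TPM. Farsb, at 71.73 against 71.75 TPM, was just inside the lower rule and Gps2, at 11.38 TPM on both sides, just outside. With either vBM-MSC library left out, fewer genes were called in each direction, the fewest without replicate 1. Such a fit holds a single vBM-MSC library, so its spread comes from the other tissues alone. Calls kept or lost in it are therefore a description.

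The following sequences are shown because the data on the leading genes bear on them. They are 2 promoters, each the 250 bases before the start site from RefSeq, and 2 windows of 201 bases centred on an ATAC-seq summit found near Zic4 or Gucy2c in the vBM-MSC list alone. All are from GRCm38.p6 and on the plus strand. Capitals mark matches, on either strand, to the TATA box letters TATAAA, the CCAAT box, the GC box letters GGGCGG, the E-box letters CACGTG, the AP-1 letters TGACTCA, the Runx letters TGTGGT or the homeodomain letters TAATTA.
Dio3 promoter, chr12:110278980-110279229: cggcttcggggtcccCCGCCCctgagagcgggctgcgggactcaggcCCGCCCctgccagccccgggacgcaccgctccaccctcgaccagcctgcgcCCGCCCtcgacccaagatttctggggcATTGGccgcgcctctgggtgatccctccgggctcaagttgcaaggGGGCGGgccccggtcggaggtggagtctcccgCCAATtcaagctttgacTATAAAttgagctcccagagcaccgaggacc
Pax1 promoter, chr2:147364744-147364993: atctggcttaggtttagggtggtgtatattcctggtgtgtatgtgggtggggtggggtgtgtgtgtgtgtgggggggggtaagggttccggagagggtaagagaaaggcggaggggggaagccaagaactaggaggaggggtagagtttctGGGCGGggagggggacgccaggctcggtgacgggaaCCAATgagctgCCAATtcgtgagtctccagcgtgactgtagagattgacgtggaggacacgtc
Zic4 upstream window, chr9:91355676-91355876: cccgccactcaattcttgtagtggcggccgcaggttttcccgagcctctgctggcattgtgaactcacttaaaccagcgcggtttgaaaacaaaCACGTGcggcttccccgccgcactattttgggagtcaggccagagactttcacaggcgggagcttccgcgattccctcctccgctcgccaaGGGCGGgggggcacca
Gucy2c intron window, chr6:136769481-136769681: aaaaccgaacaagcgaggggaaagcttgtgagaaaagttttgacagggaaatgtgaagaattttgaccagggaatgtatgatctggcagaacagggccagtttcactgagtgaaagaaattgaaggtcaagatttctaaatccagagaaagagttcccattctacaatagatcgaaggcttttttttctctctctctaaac
The Dio3 promoter held the TATA box, CCAAT box and GC box letters, which occur in 12.3%, 33.8% and 33% of 32536 promoters of this length. The Pax1 promoter held the CCAAT and GC box letters. The Zic4 window, between genes, held the GC box and E-box letters, found in 20.5% and 4.09% of 59536 vBM-MSC windows of the same length, and the Gucy2c window held none of the letters searched.

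Axial patterning factors were the first group higher in vBM-MSCs. Of 20 such genes 10 were tested, 2 of them (Zic4 and Pax9) through the vBM-MSC libraries alone, 6 were called higher (background 12.6%) and none lower, and 4 of the 6 were above every other library (background 7.35%). The median log2 fold change was 2.39, or 2.29 with genes of a tissue at 0 set to a floor of 3 counts over that tissue's libraries, against 0.03 over all genes. Against fBM-MSCs 3 were called higher (background 7.56%) and the median was 0.225. Against A-MSCs 5 were higher (13.2%) with a median of 4.53, and against P-MSCs 6 were higher (21%) and 1 lower (17.7%) with a median of 2.16. Leaving out vBM-MSC replicate 1 or replicate 2 left 4 calls each.

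Zic4, a zinc finger factor of the dorsal neural tube and somites (chr9:91368972-91389348, plus strand, 5 exons), was at 0.52 and 1.03 TPM in vBM-MSC replicates 1 and 2 and at 0 in all 9 other libraries. It was thus at least 214.5-fold higher, against a floor of 3 counts over the other 9 libraries. Its neighbour Zic1, which did not pass the filter, was at 0.43 and 1.12 TPM and also at 0 in the other 9, and is named after its values were seen. Both Zic genes were low in level but listed in vBM-MSCs alone.

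Pax1, a sclerotome factor (chr2:147364994-147375049, plus strand, 5 exons), was at 17.85 and 13.85 TPM in vBM-MSCs. It was at 0.28, 2.48 and 0.54 TPM in fBM-MSCs, 0, 0.12 and 0 TPM in A-MSCs and 0.6, 0.49 and 0.63 TPM in P-MSCs. The vBM-MSC libraries stood well clear of the others, and the log2 fold change was 5.69 (SE 0.60, adjusted p = 8.53e-05), or 3.83 (SE 0.81, adjusted p = 0.0116) against fBM-MSCs alone. Pax9, its close relative, was at 1.51 and 2.78 TPM in vBM-MSCs, 0.35, 0.17 and 0.44 TPM in fBM-MSCs, 0.02, 0 and 0.07 TPM in A-MSCs and 0.05, 0.25 and 0.09 TPM in P-MSCs. Pax9 is among the genes above every other library, so the lack of overlap follows from that rule, and fBM-MSCs were nearest. It has an exon that overlaps one of Slc25a21, so that reads without strand cannot be assigned with certainty.

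Foxc2, a forkhead factor of paraxial mesoderm, was expressed in all tissues and less distinct, at 28.04 and 27.48 TPM in vBM-MSCs. The other libraries held 10.64 to 19.48 TPM, all below both vBM-MSC libraries (log2 fold change 0.86, SE 0.15, adjusted p = 0.00247). Against A-MSCs alone Foxc2 did not pass (adjusted p = 0.066). Its relative Foxc1 was called higher (2.51, SE 0.42, adjusted p = 0.00168) at 2.93 and 3.61 TPM, but the third fBM-MSC library reached 3.39 TPM.

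**Figure D1:**
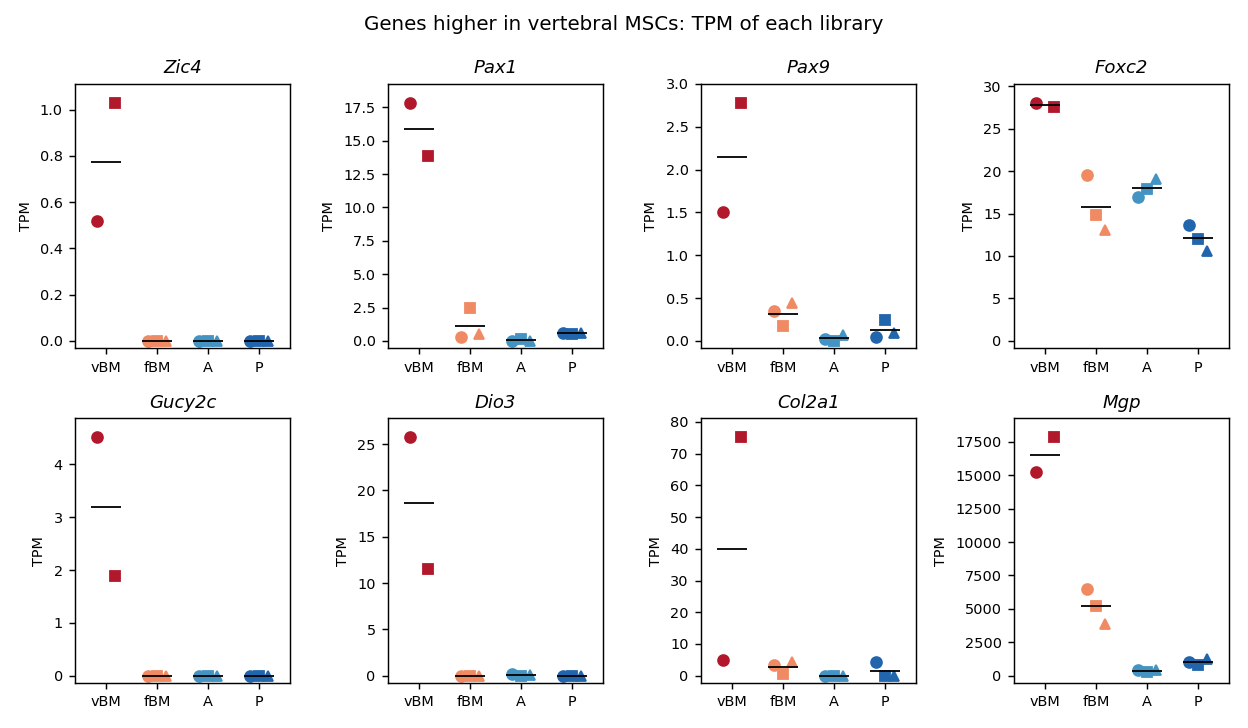
TPM of 8 genes in each library, with vBM-MSCs in dark red, fBM-MSCs in orange, A-MSCs in light blue and P-MSCs in dark blue. Circles, squares and triangles are replicates 1, 2 and 3, and bars are tissue means. All 8 genes are above every other library in both vBM-MSC libraries, and Zic4 and Gucy2c are at 0 elsewhere.

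Limb patterning factors did not share that direction. Of 15 tested genes 2 were called higher and 3 lower (background 12.6% and 9.49%), with a median log2 fold change of -0.19, or -0.92 with the bound. DESeq2 called 2 higher and 5 lower, and limma 1 higher and 7 lower. Against fBM-MSCs 1 was higher and 6 were lower (background 7.56% higher and 5.24% lower). Against A-MSCs 4 were higher and 1 was lower (background 13.2% and 12.4%), and against P-MSCs 2 were higher and 4 lower (21% and 17.7%). Tbx4, a hindlimb and lung factor, was at 0.02 and 0 TPM in vBM-MSCs, 1.39, 1.07 and 0.96 TPM in fBM-MSCs, 0.07, 0 and 0 TPM in A-MSCs and 5.73, 6.98 and 8.77 TPM in P-MSCs. It was called lower (log2 fold change -5.81, SE 1.10, adjusted p = 0.00337), although A-MSCs were as low as vBM-MSCs, and the call was lost without A-MSC replicate 1. Lhx9 was likewise lower through the P-MSCs, where it reached 8.45, 10.01 and 8.59 TPM against 0.14 and 0 TPM in vBM-MSCs (-3.31, SE 0.87, adjusted p = 0.0188), and lost its call without vBM-MSC replicate 2. Alx1, at 0 in both vBM-MSC libraries, was also at 0 in 2 fBM-MSC libraries and highest in A-MSCs at 3.52 to 4.77 TPM, and its call was lost without either vBM-MSC library and without fBM-MSC replicate 3. Pitx1, which specifies hindlimb and is named after its values were seen, was at 0.04 and 0 TPM in vBM-MSCs and 3.46, 3 and 6.5 TPM in fBM-MSCs, and its contrast with the mean of 3 tissues did not pass (adjusted p = 0.199). The 2 limb factors called higher were Irx3 and Prrx2. Irx3 was at 1.58 and 9.39 TPM in vBM-MSCs, below the 10.76, 10.8 and 28.27 TPM of fBM-MSCs and above A-MSCs and P-MSCs at 0.02 to 0.36 TPM (3.01, SE 0.52, adjusted p = 0.00211), and lost its call without vBM-MSC replicate 2. Prrx2, a homeobox factor of limb and facial mesenchyme, was above every other library, at 229.95 and 187.18 TPM in vBM-MSCs, against 17.94 to 99.1 TPM in the others (2.03, SE 0.13, adjusted p = 2.54e-06). Prrx2 was the only limb factor above every other library (background 7.35%), and none was below every other library (background 2.92%).

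Hox genes split by tissue rather than by vBM-MSCs alone. Of 16 tested HoxA and HoxB genes 4 were called higher, and of 10 HoxC and HoxD genes 6 (background 12.6%), with no gene of either list called lower. Without vBM-MSC replicate 2 the first list had 2 higher and 1 lower and the second 4 higher, and limma called 1 gene of the second lower. Hoxb9, 1 of the 4, lost its call in 10 of the settings tried, DESeq2 and both omissions of a vBM-MSC library among them. Against fBM-MSCs the HoxA and HoxB list had 8 higher (background 7.56%) and 1 lower (5.24%) with a median of 3.004, but none of either direction against A-MSCs. All 10 HoxC and HoxD genes were higher than in P-MSCs (background 21%), with a median of 7.89. Against fBM-MSCs 4 of them were higher and 2 lower, with a median of -0.02, and against A-MSCs 1 was lower (background 12.4%), with a median of -0.155. Hoxb6 was at 18.37 and 25.83 TPM in vBM-MSCs, 1.67, 0.13 and 0.11 TPM in fBM-MSCs, 5.71, 9.49 and 7.96 TPM in A-MSCs and 14.48, 14.55 and 14.44 TPM in P-MSCs. Both vBM-MSC libraries were highest, but the contrast with P-MSCs did not pass (log2 fold change 0.68, SE 0.64, adjusted p = 0.436). Hoxb7 was also above every other library, at 26.06 and 35.75 TPM against at most 20.73 TPM, without passing the test (adjusted p = 0.121). Hoxc6, at 14.45 and 20.89 TPM, exceeded fBM-MSCs and A-MSCs narrowly, at 6.19 to 12.59 TPM, and P-MSCs widely, at 0.14 to 0.39 TPM. Against A-MSCs its contrast did not pass (0.49, SE 0.31, adjusted p = 0.265).

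Genes of thyroid hormone action and of the imprinted Dlk1-Dio3 domain were taken as 1 list. Dio3 and Dio2 encode deiodinases, which respectively inactivate thyroid hormone and convert it to its active form, Thra encodes a thyroid hormone receptor, and Dlk1 and the noncoding Rian lie in the same imprinted domain as Dio3. Of 12 tested genes of that list 5 (Dio2, Dio3, Thra, Dlk1 and Rian) were called higher (background 12.6%) and none lower, and 4 were above every other library (background 7.35%), with Dio3 tested through the vBM-MSC libraries alone. The median log2 fold change was 1.34, and 1.12 against fBM-MSCs, where 6 were higher (background 7.56%) and 1 lower (5.24%). Only 2 calls were left without vBM-MSC replicate 1 and 3 without replicate 2.

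Dio3 (chr12:110279230-110281097, plus strand, 1 exon) was at 25.72 and 11.57 TPM in vBM-MSCs. It was at 0 in all fBM-MSC and P-MSC libraries and at 0.23, 0 and 0.07 TPM in A-MSCs. Both vBM-MSC libraries were far above all 9 others. Dio2 (chr12:90724552-90739038, minus strand, 2 exons) was at 1.24 and 0.46 TPM in vBM-MSCs, 0.05, 0.01 and 0.07 TPM in fBM-MSCs, 0 in A-MSCs and 0.21, 0.32 and 0.25 TPM in P-MSCs (adjusted p = 0.00114). Its contrast with P-MSCs did not pass (adjusted p = 0.126). Replicate 1 was the higher vBM-MSC library for both deiodinases. Thra was at 4.09 and 3.11 TPM against 0.84 to 2.44 TPM (1.50, SE 0.34, adjusted p = 0.00922), and Dlk1 at 1.88 and 4.44 TPM against 0.03 to 1.36 TPM (2.71, SE 0.58, adjusted p = 0.00656). Against fBM-MSCs alone Thra did not pass (adjusted p = 0.184), nor did Dlk1 against P-MSCs alone (adjusted p = 0.143). Thra lost its call without vBM-MSC replicate 1 and Dlk1 without replicate 2.

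Cyclic GMP genes followed, led by a receptor of the gut. Gucy2c (chr6:136697284-136781742, minus strand), the guanylate cyclase receptor of intestinal epithelium, was at 4.51 and 1.88 TPM in vBM-MSCs and at 0 in the 9 other libraries. It was at least 790.1-fold higher against the floor, while its ligand genes Guca2a and Guca2b were at 0 in both vBM-MSC libraries. Of 8 epithelial markers, Epcam, Cdh1, Krt5, Krt8 and Sftpc were at 0 in both, and Krt14, Krt18 and Cldn4 were at 0.32, 0.36 and 0.45 TPM in replicate 2. The list summed to 0 and 1.13 TPM in vBM-MSCs, against 0.17 to 0.34 TPM in fBM-MSCs, 27.1 to 60.49 TPM in A-MSCs and 0.72 to 1.73 TPM in P-MSCs, and the part of this in the Gucy2c level was not tested. Npr3, the natriuretic peptide clearance receptor, was at 10.69 and 5.15 TPM in vBM-MSCs against 0.05 to 3.66 TPM (3.43, SE 0.39, adjusted p = 0.000122). Prkg1, the cyclic GMP-dependent kinase, was at 2.42 and 3.32 TPM against 0.5 to 1.59 TPM (1.45, SE 0.22, adjusted p = 0.000925). The contrasts of Npr3 with P-MSCs and of Prkg1 with A-MSCs did not pass (adjusted p = 0.0664 and 0.0625). Pde5a, a phosphodiesterase that degrades cyclic GMP, was above every other library at 0.68 and 0.53 TPM but was not called (adjusted p = 0.0514). In all, 5 of 10 tested genes were called higher (background 12.6%), Gucy2c among them, and none lower. DESeq2 called 6 higher and 1 lower. In edgeR against fBM-MSCs 5 were higher (background 7.56%) and 1 lower (5.24%). With either vBM-MSC library left out, fewer were called higher than the mean, and without replicate 2 calls went in both directions.

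Of 13 tested chondrocyte genes 9 were called higher (background 12.6%) and none lower, 5 of them above every other library (background 7.35%), with a median log2 fold change of 1.79. Against fBM-MSCs alone 1 was called higher (background 7.56%) and the median was 0.56. Against A-MSCs 8 were higher (13.2%) with a median of 2.72, and against P-MSCs 8 were higher (21%) and 1 lower (17.7%) with a median of 2.90. Without vBM-MSC replicate 2 there were 4 calls, and without replicate 1 there were 9. Col2a1, the main collagen of cartilage, was at 4.92 and 75.08 TPM in vBM-MSCs, 3.4, 0.43 and 4.41 TPM in fBM-MSCs, 0 in A-MSCs and 4.21, 0 and 0 TPM in P-MSCs. Replicate 1 exceeded the highest other library only narrowly, and the call (adjusted p = 0.0078) was lost without replicate 2 and in DESeq2. Comp, a cartilage matrix protein, was at 109.17 and 97.55 TPM in vBM-MSCs, 36.81, 7.65 and 88.11 TPM in fBM-MSCs and at most 0.87 TPM in the other tissues. The difference lay with A-MSCs and P-MSCs (log2 fold change 11.06 and 8.42, adjusted p = 0.000387 and 0.00025), since that with fBM-MSCs did not pass (1.174, SE 0.87, adjusted p = 0.417). Sox9, the chondrocyte master regulator, was at 11.58 and 12.34 TPM against 1.53 to 10.84 TPM (1.10, SE 0.20, adjusted p = 0.00296), with A-MSCs nearest (0.22, SE 0.25, adjusted p = 0.566). Col11a1 was at 6.96 and 10.52 TPM against 0.9 to 5.08 TPM (1.78, SE 0.28, adjusted p = 0.00102).

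Of 23 tested osteoblast genes 12 were called higher than the mean of 3 tissues (background 12.6%) and none lower. Only Tnfrsf11b was above every other library (background 7.35%). DESeq2 called 9 higher, and limma 6 higher and 1 lower. Against fBM-MSCs, where 7.56% of all genes were called higher and 5.24% lower, 1 of the 23 was higher and 7 were lower. Against A-MSCs 13 were higher (background 13.2%) and against P-MSCs 15 (21%), and none were lower. Ibsp, a bone matrix protein, was at 16.92 and 320.8 TPM in vBM-MSCs, 218.38, 286.39 and 1009.69 TPM in fBM-MSCs and at most 0.08 TPM elsewhere. The vBM-MSC libraries overlapped fBM-MSCs (log2 fold change -1.71, SE 0.90, adjusted p = 0.244). Dmp1, an osteocyte gene, was at 0.8 and 17.18 TPM against 40.36, 96.65 and 159.13 TPM in fBM-MSCs, below all 3 (-3.56, SE 0.95, adjusted p = 0.0315). Replicate 2 carried the larger bone signal in vBM-MSCs, and without it fewer genes of the list were called higher. Tnfrsf11b, the decoy receptor that restrains osteoclast formation, was at 297.78 and 243.12 TPM in vBM-MSCs, against 40.51 to 126.81 TPM in the others (2.04, SE 0.16, adjusted p = 9.63e-06), and was similar in both libraries.

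**Figure D2:**
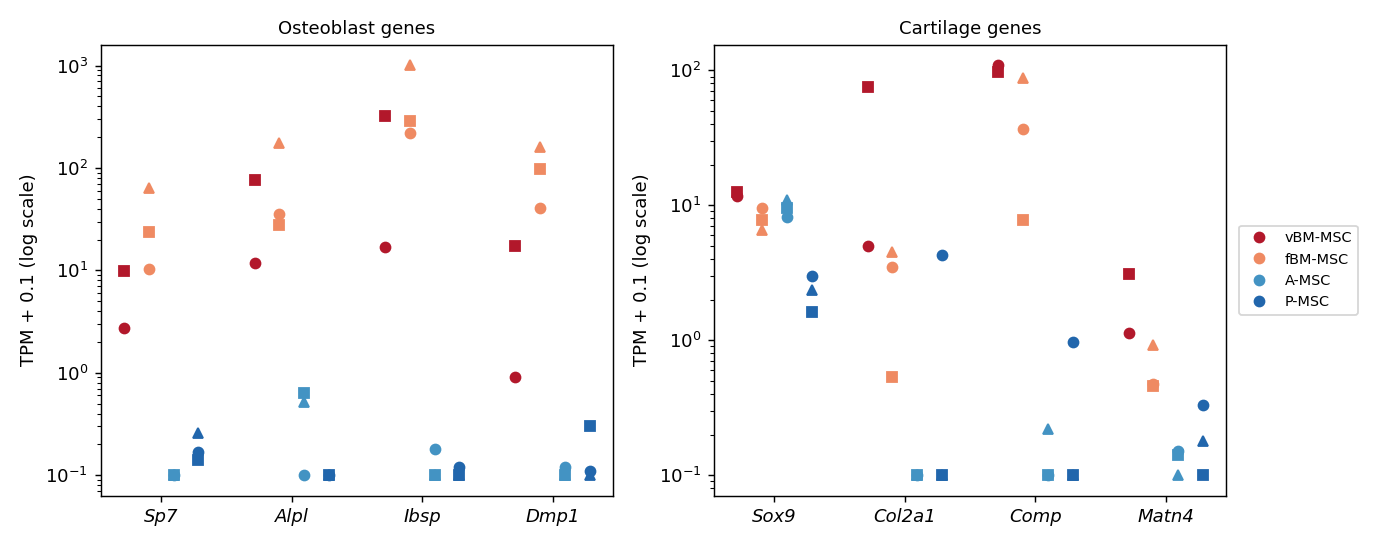
TPM + 0.1 on a log scale for 4 osteoblast and 4 cartilage genes in each library. Circles, squares and triangles are replicates 1, 2 and 3. For the osteoblast genes vBM-MSC replicate 2 (square) is above replicate 1 (circle) and fBM-MSCs reach the highest levels, whereas the 4 cartilage genes are highest in vBM-MSCs.

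Matrix and growth factor genes included the most abundant of the risen genes. Mgp, an inhibitor of calcification (chr6:136872435-136875823, minus strand, 4 exons), was at 15214.4 and 17831.9 TPM in vBM-MSCs and 6476.92, 5207.26 and 3860.36 TPM in fBM-MSCs. It ranged, in A-MSCs, over 309.26 to 440.43 TPM and, among P-MSCs, over 835.75 to 1274.34 TPM. It was the most abundant of the genes named here in both vBM-MSC libraries (log2 fold change 3.65, SE 0.18, adjusted p = 6.94e-07, and 1.61, SE 0.25, adjusted p = 0.00202, against fBM-MSCs).

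Of 17 tested collagen genes, 10 were called higher (background 12.6%) and none lower, 7 were above every other library (background 7.35%), and 6 were higher than in fBM-MSCs (7.56%). The median log2 fold change of the list was 1.169. Col8a1, a short-chain collagen, was at 336.62 and 326.76 TPM in vBM-MSCs against 67.55 to 96.39 TPM in fBM-MSCs and 28.45 to 34.34 TPM in the others (2.91, SE 0.11, adjusted p = 2.58e-07). Col6a1, of microfibrillar collagen, was at 79.64 and 102.46 TPM against 5.18 to 34.96 TPM (2.97, SE 0.34, adjusted p = 0.000134). Col3a1, of fibrillar collagen, was at 108.22 and 167.03 TPM against 4.46 to 61.57 TPM (2.55, SE 0.23, adjusted p = 3.16e-05). All 3 are among the 7 above every other library, so their lack of overlap with the other tissues follows from that rule.

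Of 12 tested genes of insulin-like growth factor (IGF) signalling, 5 were called higher and 1 lower (background 12.6% and 9.49%), 4 and 1 against fBM-MSCs (7.56% and 5.24%), 5 and 1 against A-MSCs (13.2% and 12.4%), and 4 and 4 against P-MSCs (21% and 17.7%). Limma called 3 higher and 3 lower against the mean, DESeq2 5 and 2, and edgeR 3 and 2 without vBM-MSC replicate 2. Igf1 itself was at 185.26 and 66.98 TPM in vBM-MSCs, 20.36, 6.11 and 4.78 TPM in fBM-MSCs, 38.09, 34.61 and 31.63 TPM in A-MSCs and 16.35, 13.99 and 19.14 TPM in P-MSCs. Replicate 1 was highest and replicate 2 also cleared the rest (log2 fold change 2.94, SE 0.41, adjusted p = 0.000572). Igfbp2 was at 3914.05 and 2091.07 TPM against 9.85 to 637.2 TPM (3.81, SE 0.69, adjusted p = 0.00263). Its contrasts with fBM-MSCs and A-MSCs did not pass (adjusted p = 0.0701 and 0.055). Igfbp4 was at 602.31 and 332.31 TPM against 55.17 to 202.69 TPM (2.22, SE 0.30, adjusted p = 0.000432). Both encode IGF-binding proteins.

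Among BMP ligands and antagonists, 6 of 19 tested genes were called higher and 2 lower (background 12.6% and 9.49%), and without vBM-MSC replicate 2 these were 3 and 4. Against fBM-MSCs 2 were higher and 3 lower (background 7.56% and 5.24%), and the median log2 fold change there was -0.415, against 0.77 for the mean of 3 tissues. Fst, which binds activin, was at 127.67 and 133.96 TPM against 17.97 to 80.71 TPM (1.74, SE 0.20, adjusted p = 0.000122). Its contrast with A-MSCs did not pass (adjusted p = 0.064). Gdf10 was at 3.18 and 3.14 TPM against at most 0.46 TPM. Among Wnt ligands and inhibitors, 6 of 19 were called higher (background 12.6%) and none lower. Against fBM-MSCs 1 was higher and 2 were lower (background 7.56% and 5.24%), with a median of -1.03, against 0.78 for the mean of 3 tissues. Sfrp1, a secreted Wnt inhibitor, was at 21.02 and 26.83 TPM in vBM-MSCs, narrowly above A-MSCs at 11.5, 20.13 and 20.21 TPM and far above fBM-MSCs and P-MSCs at 0.78 to 1.93 TPM (2.93, SE 0.28, adjusted p = 4.44e-05). Its contrast with A-MSCs did not pass (adjusted p = 0.539).

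Of 14 tested niche genes, which support blood stem cells, 4 were called higher (background 12.6%) and none lower, with a median log2 fold change of 0.22. By tissue 3 were higher and 2 lower against fBM-MSCs (background 7.56% and 5.24%), 4 and 1 against A-MSCs (13.2% and 12.4%), and 5 and 3 against P-MSCs (21% and 17.7%). Ebf1, Pdgfrb and Fgf7 were above every other library (background 7.35%). DESeq2 called 3 niche genes higher than the mean of 3 tissues and 1 lower. Angpt1, also called higher in edgeR, lost that call in DESeq2 and limma. Its log2 fold change turned negative without vBM-MSC replicate 2. Pdgfrb, a receptor of pericytes and stroma, was at 76.74 and 89.39 TPM against 16.25 to 43.9 TPM (1.49, SE 0.11, adjusted p = 9.63e-06). Ly6a, which encodes Sca-1 used to isolate MSCs, was at 805.46 and 571.4 TPM in vBM-MSCs, 255.98, 315.64 and 480.33 TPM in fBM-MSCs, 144.58, 120.76 and 114 TPM in A-MSCs and 42.28, 46.5 and 46.14 TPM in P-MSCs (2.45, SE 0.19, adjusted p = 1e-05).

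Other large rises were in genes of mixed function. Il1rn, an antagonist of interleukin-1, was at 14.5 and 32.58 TPM against at most 12.84 TPM, in fBM-MSCs. Abi3bp, an extracellular matrix protein, was at 24.44 and 5.07 TPM against at most 0.49 TPM (log2 fold change 8.51, SE 0.76, adjusted p = 2.87e-05). Bst1, an ectoenzyme of marrow stroma, was at 20.7 and 3.85 TPM against at most 0.45 TPM. Kng1 was at 1.13 and 6.28 TPM against at most 0.32 TPM, and since its reads may be shared with the related Kng2 its level is uncertain. The predicted gene Gm15698, which the naming rule left out and which is given after its values were seen, was at 384.38 and 169.92 TPM against at most 3.78 TPM (8.41, adjusted p = 5.39e-06).

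Of the most abundant risen genes, Timp3, an inhibitor of matrix metalloproteinases, was at 1759.46 and 1270.94 TPM in vBM-MSCs against 241.34 to 1158.73 TPM (1.51, SE 0.17, adjusted p = 0.00012). Its contrast with fBM-MSCs did not pass (adjusted p = 0.0514). Scpep1, a serine carboxypeptidase, was at 1106.13 and 917.06 TPM against 189.3 to 402.06 TPM (1.9995, SE 0.12, adjusted p = 2.18e-06), and an exon of it overlaps Scpep1os. Cav1, the main protein of caveolae, was at 1346.73 and 638.98 TPM against 67.54 to 589.79 TPM (1.36, SE 0.41, adjusted p = 0.0351). Its call was lost in limma, without vBM-MSC replicate 1 and without any single A-MSC or P-MSC library. Its contrasts with A-MSCs and P-MSCs did not pass (adjusted p = 0.365 and 0.0523). Islr was at 58.57 and 79.05 TPM against 16.5 to 33.51 TPM in fBM-MSCs, 2.47 to 3.8 TPM in A-MSCs and 0 in P-MSCs, and differed from fBM-MSCs by 1.465 (SE 0.31, adjusted p = 0.015). Ano5, Ifitm1, Bmp15, Arsi and Foxa1 were tested through the vBM-MSC libraries alone, and ranged there from 0.45 TPM for Ano5 to 5.62 TPM for Ifitm1.

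Of 22 tested cholesterol synthesis genes 9 were called higher (background 12.6%) and none lower, 7 were higher than in fBM-MSCs (7.56%), and 6 were above every other library (7.35%), with a median log2 fold change of 0.24. Idi1 had the largest of the 6, at 164.04 and 132.53 TPM against 54.64 to 92.28 TPM (1.02, SE 0.13, adjusted p = 0.000254). Sqle was at 69.57 and 75.36 TPM against 42.24 to 55.71 TPM (0.51, SE 0.10, adjusted p = 0.00431). Calls fell to 4 without vBM-MSC replicate 1 and 6 without replicate 2. Immediate early genes, which respond rapidly to stimulation, were called higher in 11 of 16 cases (background 12.6%), with 8 above every other library (7.35%) and 10 higher than in fBM-MSCs (7.56%). Fos was at 23.87 and 24.71 TPM against 1.44 to 7.49 TPM (2.49, SE 0.21, adjusted p = 1.56e-05). Fewer immediate early genes were called higher with either vBM-MSC library left out, and without replicate 2 calls went in both directions.

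**Figure D3:**
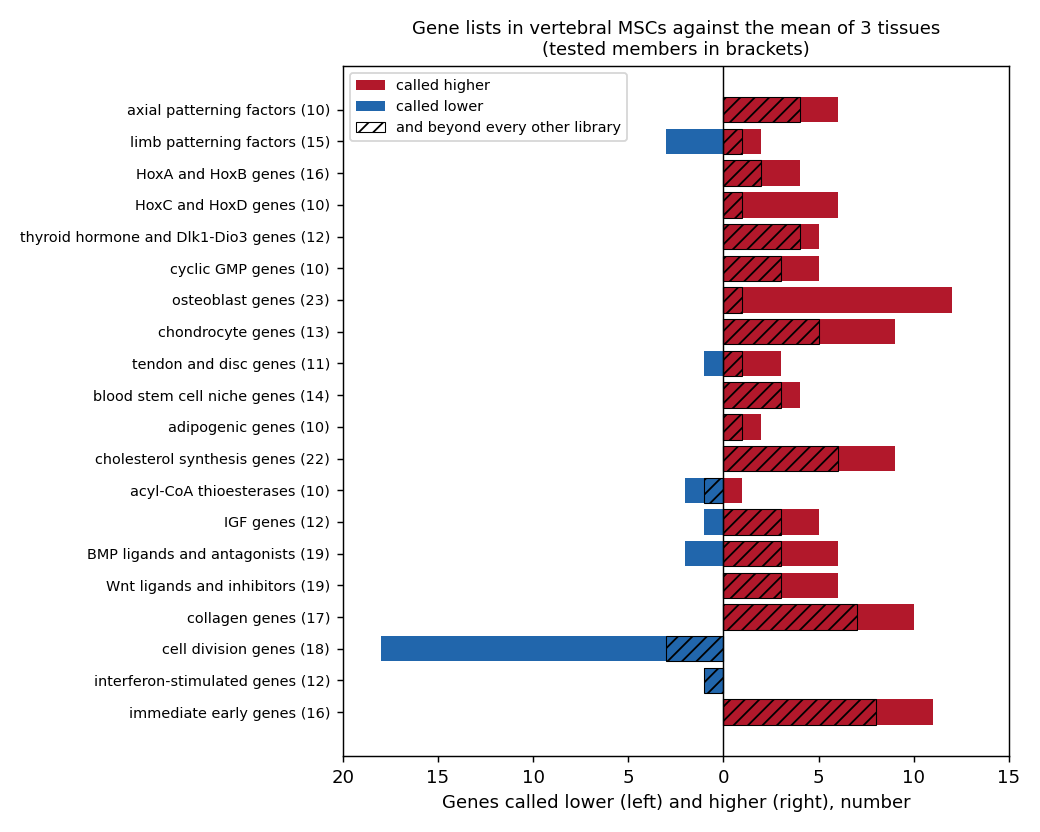
Number of genes of each list called lower (blue, left) and higher (red, right) in vBM-MSCs against the mean of the 3 other tissues, in edgeR. Hatching marks called genes that are also beyond every other library, and tested members are in brackets. The cell division list is the largest on the left, with 18 of 18 genes, and the osteoblast list the largest on the right, with 12 of 23.

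Cell division genes were the group that fell. All 18 of the list were called lower (background 9.49%), with a median log2 fold change of -1.61, and 17 were so without either vBM-MSC library. The median was 0.20 against fBM-MSCs, where 2 of 18 were called lower (background 5.24%) and 1 higher (7.56%), -2.25 against A-MSCs, where 17 were lower (12.4%), and -3.20 against P-MSCs, where 18 were lower (17.7%). Mki67, a marker of dividing cells, was at 0.16 and 0.47 TPM in vBM-MSCs, 0.39, 0.35 and 0.6 TPM in fBM-MSCs, 0.49, 0.5 and 0.57 TPM in A-MSCs and 5, 6.64 and 6.3 TPM in P-MSCs. Its vBM-MSC levels overlapped fBM-MSCs and were far below P-MSCs alone. Rrm2, a subunit of ribonucleotide reductase, was at 98.33 and 92.87 TPM in vBM-MSCs, 239.92, 168.95 and 162.85 TPM in fBM-MSCs, 265.29, 228.47 and 287.24 TPM in A-MSCs and 343.96, 331.16 and 342.02 TPM in P-MSCs. It was below every other library (-1.44, SE 0.18, adjusted p = 0.000206), also against fBM-MSCs (-1.04, SE 0.19, adjusted p = 0.00561). Mcm3, of the replicative helicase, was at 4.28 and 6.92 TPM in vBM-MSCs against at least 7.79 TPM (-2.30, SE 0.17, adjusted p = 8.43e-06).

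Of the 285 genes below every other library and called lower, the 10 with the largest fall were all at 0 in both vBM-MSC libraries. Hsd3b1, a steroid dehydrogenase (chr3:98852194-98859794, minus strand), was at 2.88, 0.51 and 3.07 TPM in fBM-MSCs, 7.64, 8.21 and 2.66 TPM in A-MSCs and 22.41, 22.27 and 22.52 TPM in P-MSCs. It was at least 239.9-fold lower in vBM-MSCs, against a floor of 3 counts over both libraries (adjusted p = 0.000641). The others of the 10 were Foxn1, Rpp25, Serpinb9g, Kcne4, Cldn3, Ccdc89, Tbxas1, Hist2h2be and Podxl, for which the bound ran from 13.82-fold for Podxl to 30.53-fold for Foxn1, and Podxl was at most 0.5 TPM in any library. Without either vBM-MSC library Kcne4, Ccdc89, Tbxas1, Hist2h2be and Podxl lost their call, and Serpinb9g did without replicate 1. Cldn3 overlaps an exon of Wbscr25.

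Among abundant fallen genes, Taldo1, an enzyme of the pentose phosphate pathway, was at 228.96 and 281.88 TPM in vBM-MSCs, 653.38, 660.31 and 417.07 TPM in fBM-MSCs, 509.03, 586.71 and 543.28 TPM in A-MSCs and 832.85, 877.04 and 781.26 TPM in P-MSCs. Both vBM-MSC libraries were clear of the rest (-1.36, SE 0.16, adjusted p = 0.00018). Mmd, a membrane protein of macrophage differentiation, was at 43.6 and 49.26 TPM against 54.9 TPM in the nearest fBM-MSC library and 852.49 to 945.82 TPM in A-MSCs (-2.41, SE 0.28, adjusted p = 0.000137). Acot7, an acyl-CoA thioesterase, was at 114.04 and 141.61 TPM against 171.31 to 296.42 TPM (-0.97, SE 0.12, adjusted p = 0.000259). Prl2c2, a proliferin, was at 13.46 and 79.78 TPM against 458.53 to 2209.35 TPM (-4.87, SE 0.70, adjusted p = 0.000639), but it has near-identical copies with which reads may be shared, so its level is uncertain.

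Of the macrophage markers 4 were tested, with Lyz2 called higher (background 12.6%) and Cd68 and Csf1r called lower (background 9.49%). The call of Csf1r was lost without vBM-MSC replicate 2. Ifit2 was the single one of 12 tested interferon-stimulated genes called lower, near the background of 9.49%, and none were called higher (background 12.6%). The median log2 fold change of that list was 0.144. Ifit2 was at 1.29 and 3.85 TPM against 3.95 to 8.91 TPM (-1.30, SE 0.31, adjusted p = 0.0113). Its call was lost without vBM-MSC replicate 1. Cd68, a macrophage lysosomal protein, was at 0.87 and 2.72 TPM against 3.47 to 18.47 TPM (-2.23, SE 0.45, adjusted p = 0.00481).

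**Figure D4:**
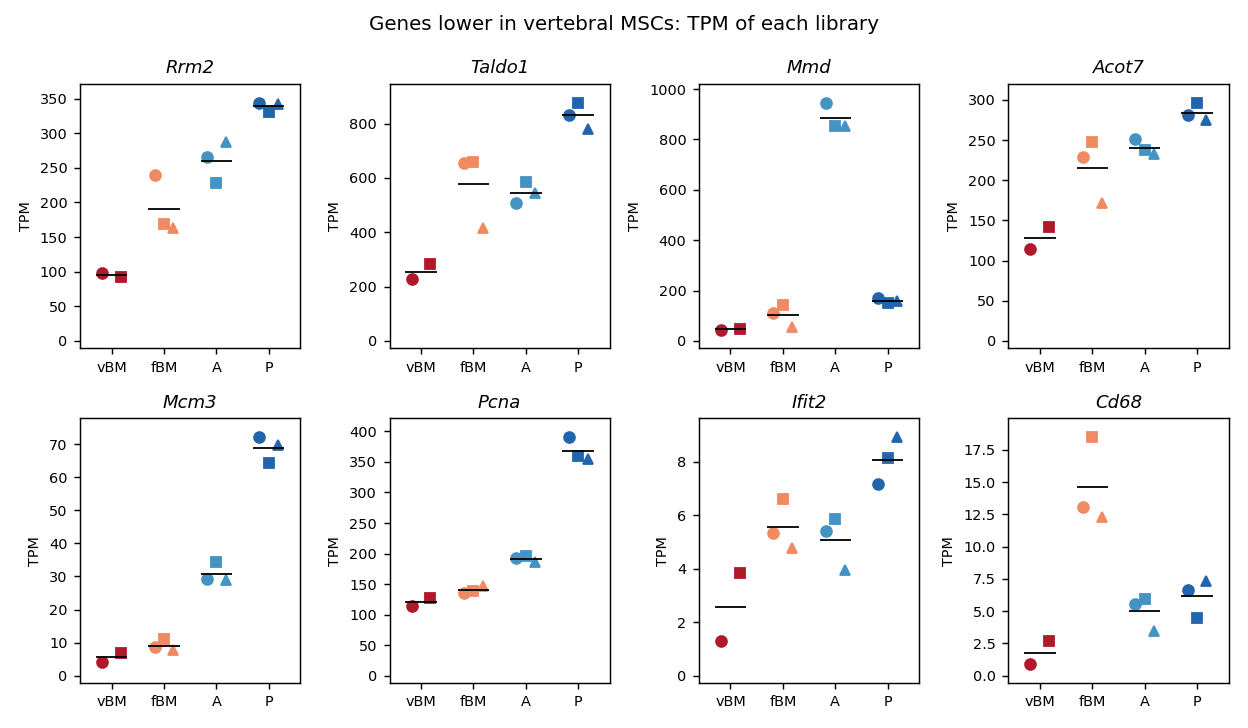
TPM of 8 genes in each library, with colours for vBM-MSCs (dark red), fBM-MSCs (orange), A-MSCs (light blue) and P-MSCs (dark blue). Symbols are replicates 1 (circle), 2 (square) and 3 (triangle), and bars are tissue means. In all 8 panels both vBM-MSC libraries are the lowest.

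Taken tissue by tissue, vBM-MSCs differed least from fBM-MSCs, with 946 genes higher and 655 lower. They had 1650 genes higher (13.2%) and 1551 lower (12.4%) than A-MSCs, and 2627 higher (21%) and 2215 lower (17.7%) than P-MSCs. In either direction this was 22.1% of genes against the mean, 12.8% against fBM-MSCs, 25.6% against A-MSCs and 38.7% against P-MSCs. These contrasts share the vBM-MSC libraries. Of the genes above every other library and called, 204 were called higher against each of the 3 tissues, and of those below, 120 were called lower against each.

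Open chromatin was not used to choose these genes, but 28 of the 709 higher genes were tested through the vBM-MSC libraries alone. Dio3, Zic4 and Gucy2c are among those 28 and were not left out, so the shares below are descriptions. The 4 deposited peak lists, 1 per tissue, are assigned by the labels to all samples of that tissue together, so that differences between lists have no replicate check. A summit with a -log10 q of at least 7 within 1000 bp of a start site was counted as a promoter summit, for genes on the 19 autosomes. The vBM-MSC list alone had one for 17 of the 670 placed higher genes (2.54%), against 0.591% of the 12021 placed genes and 0.37% of the 270 lower genes. Where any list had a summit, the vBM-MSC one had the highest fold enrichment over background for 30.5% of the higher genes, 23% of all genes and 14.5% of the lower genes. Thus most promoters of higher genes were open in the other tissues as well, with summits in 80.9%, 83% and 83.3% of the genes in fBM-MSC, A-MSC and P-MSC lists and 86.9% in the vBM-MSC list.

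Single genes differed in their promoters. Dio3 had a summit at -188 bases from its start site in the vBM-MSC list alone, with a fold enrichment of 6.25, inside the promoter printed above. Dio2 had one 871 bases after its start, with a fold enrichment of 8.46, which met the -log10 q of 7 in that list alone but was not vBM-only by a rule that counts other lists at any q. Mgp had summits in both marrow lists, with a fold enrichment of 14.7 in vBM-MSCs and 7.36 in fBM-MSCs, and none in the other lists. Pax1 had a summit in all 4 lists, with a fold enrichment of 9.20 in the vBM-MSC list against 9.56, 7.36 and 9.93 in the fBM-MSC, A-MSC and P-MSC lists. Foxc2 was highest in vBM-MSCs at 11.8 against 7.36 to 8.83. Zic4, Gucy2c and Comp had no promoter summit in any list.

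Around the genes, a vBM-only summit was one with no summit within 250 bp, and no listed region over it, in any other list at any q. Of 59536 vBM-MSC summits 2567 (4.31%) were of this kind. Within 50 kb of a start site they occurred for 23.3% of higher genes, 8.15% of lower genes and 12.8% of all genes. These shares, too, include the genes tested through the vBM-MSC libraries alone, such as Zic4, Gucy2c and Dio3. Zic4 had 7 vBM-MSC summits in that range, of which 5 were vBM-only, the strongest at -13196 bases from the start site with a -log10 q of 19.8 and a fold enrichment of 9.93, the window printed above. Gucy2c had 9, of which 2 were vBM-only, and the one printed, the strongest, lay in an intron 12161 bases after its start with a -log10 q of 9.02. The single vBM-MSC summit near Dio3 was its promoter summit.

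**Figure D5:**
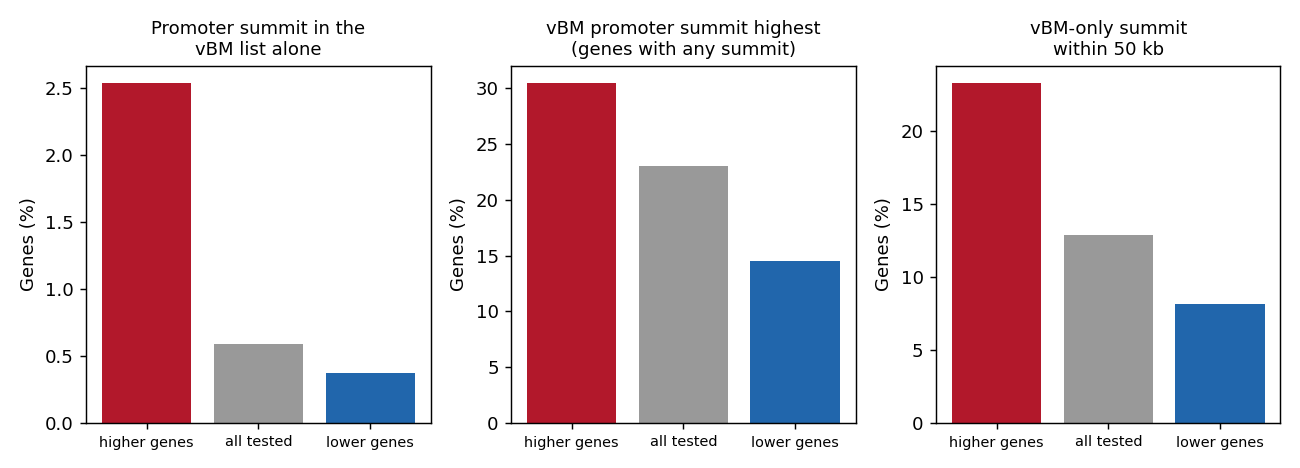
Percent of genes with a promoter summit in the vBM-MSC list alone (left), with the highest promoter fold enrichment in vBM-MSCs among genes with any summit (middle), and with a vBM-only summit within 50 kb (right). Bars are higher genes (red), all tested genes (grey) and lower genes (blue), and higher genes exceed all genes in each panel, at 2.54%, 30.5% and 23.3%.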

How the data were processed

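RNA-seq and ATAC-seq of mouse MSCs from 4 tissues were analysed. Members and gene lists were chosen with earlier results of these data known. The authors aligned RNA-seq reads to mm10 with RSEM (STAR) and deposited expected counts and TPM per gene. ATAC-seq reads were trimmed with Trim Galore, aligned with Bowtie, cleared of duplicates with Picard and shifted for the Tn5 cut. The authors deposited 1 MACS2 peak list per tissue, with fold enrichment, -log10 q and the summit offset, which the labels assign to 6 ATAC-seq samples (3 replicates) each; how these were combined is not given in the sources used here. Groups follow the labels.

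Expected counts were rounded and tested in edgeR 4.0.16 (R 4.3.3) by the quasi-likelihood test with TMM scaling, tissue as the only term, over all 11 libraries, two-sided, with Benjamini-Hochberg adjustment over 12509 genes. The contrast was vBM-MSCs minus the mean of the 3 other tissues. Genes above or below every other library were found on TPM. P-values measure the spread between these libraries. The fit was tested on simulated data. Floors cover counting error only. Positions came from RefSeq GRCm38.p6.

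Genes named were the 4 markers Gucy2c, Zic4, Dio3 and Pax1; the 15 largest rises and, of those at least 2-fold, the 5 highest levels among separated and called genes; the 10 largest falls and, of those at least 2-fold, the 5 highest levels among the lower ones; and, of each list, up to 4 called genes with the largest change plus separated genes. Predicted (Gm) and Rik genes were left out of the ranked parts. Alternatives were RLE factors, DESeq2 1.42.0, limma 3.58.1 on log2(TPM + 1), other filters, a replicate block, leaving out each library, other summit thresholds and promoter widths. The search for summits within 50 kb was added after the data were seen. Not every gene so chosen is described, and 1 result is not reported here.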

Additional observations from a re-analysis of the deposited data

How the results depend on the processing

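With all libraries, the numbers of genes called higher or lower than the mean of 3 tissues stayed within 1.5 times of 1582 and 1187 under RLE factors, DESeq2, limma, both other filters and the replicate block (1336 higher and 1054 lower under the block). Under the block cyclic GMP calls fell from 5 to 3. Of the genes named by the rule 9 lost their call under it, namely Acot13, Angpt1, Cav1, Col2a1, Hapln1, Hoxb9, Igfbp5, Nppb and Wnt2. The block, added to the tissue term because the labels number the replicates alike, is not shown to pair them, since same-numbered libraries of different tissues correlated at -0.03 to 0.12 in their deviations from tissue means, with 1 of 15 pairs over 0.1. Leaving out single libraries gave 861 to 1776 higher and 643 to 1395 lower, the lowest without vBM-MSC replicate 1. Genes above every other library numbered 920 and ranged from 939 to 2084 without single libraries, and those below numbered 365 and ranged from 368 to 1871. A 2-fold margin on TPM + 0.1 left 96 above and 22 below, and TMM-scaled CPM gave 552 below. Against fBM-MSCs, the higher count ranged from 404 to 1028 and the lower from 206 to 933 without single libraries, both lowest without vBM-MSC replicate 1, with 393 lower without fBM-MSC replicate 2, and DESeq2 called 1006 lower. These contrasts by tissue were varied after the data were seen. With all listed summits the share of higher genes with a promoter summit in the vBM-MSC list alone was 1.49% against 0.32% of all genes, in place of 2.54% against 0.59%, and at a -log10 q of at least 20 it was 2.84% against 1.66% of all genes and 1.48% of the lower genes. Of 131 called genes named by the rule, 81 kept the call in every setting that could be run and 44 lost it without one of the vBM-MSC libraries. The log2 fold change of Angpt1, 3.46 with all libraries, ranged from -2.67 without vBM-MSC replicate 2 to 5.01 without P-MSC replicate 1. The share of higher genes with a vBM-only summit, 23.3% against 12.8% of all genes within 50 kb, was 12.5% against 5.45% within 20 kb, 34.3% against 23.9% within 100 kb, 1.19% against 0.43% at a -log10 q of at least 20 and 68.1% against 55.2% with all listed summits. The causes were not tested. With 2 vBM-MSC libraries, their own spread limits every comparison.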

Other observations

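The remaining lists had few calls. Over all tested genes 12.6% were called higher and 9.49% lower, which is the background of every list below. With so few members tested, these counts are not read as results about the lists. Of 10 tested adipogenic genes, Cebpa and Fabp5 were called higher in vBM-MSCs than in the mean of the other tissues and none lower, but Cebpa lost its call without vBM-MSC replicate 2, where 1 gene was called lower, and Fabp5 without replicate 1. Of 11 tendon and disc genes, Egr1, Fmod and Foxf1 were called higher and Cd24a lower (background 12.6% and 9.49%). Foxf1 lost its call without vBM-MSC replicate 1, and Cd24a with either vBM-MSC library left out. Of 10 acyl-CoA thioesterases, Acot11 was called higher and Acot7 and Acot13 lower, against the same background. Acot11 lost its call without vBM-MSC replicate 2, and Acot13 without any single vBM-MSC or P-MSC library. Of the 8 MSC surface genes, Ly6a and Eng were called higher. S100b was the 1 gene called higher of 2 tested glia and neuron markers, and Des and Msln were called lower among 3 tested skeletal muscle and 7 tested mesothelial markers. S100b lost its call in DESeq2 and without vBM-MSC replicate 2, and Msln without vBM-MSC replicate 2 and without fBM-MSC replicate 1. None of the tested erythroid, endothelial or epithelial markers passed the edgeR test, though 2 endothelial markers had an unadjusted p under 0.05. DESeq2 and limma each called 1 endothelial marker lower, as did edgeR without vBM-MSC replicate 2, and limma called 3 epithelial markers lower. The median log2 fold change was 0.84 for the adipogenic, 0.37 for the tendon and disc and 1.54 for the glia and neuron genes tested. It was -3.47 for the mesothelial genes, or -1.84 with genes of a tissue at 0 set to the floor, and 0 against both fBM-MSCs and P-MSCs. For the epithelial genes it was -1.12, or -2.16 with the floor.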
